A study of Mus musculus with 168 samples.

Results

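The aminoacyl-tRNA synthetases described here are 37 genes of the 42405 gene symbols in the deposited tables. They were chosen by name: symbols made of 1 letter and "ars", with or without a closing 1 or 2, together with Eprs, Farsa and Farsb. The rule uses names only. Symbols that end in 2 were taken as the mitochondrial enzymes, which gave 17 genes, and the other 20 as the cytosolic enzymes. All 37 reached 1 TPM (transcripts per 1000000, a unit scaled by gene length), the limit used here for detection, in at least 1 of 150 cells.

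The study profiled single neural cells of old male C57BL/6 mice with Smart-seq2, a full-length RNA-seq method in which each picked cell gives 1 library. The subventricular zone (SVZ), the stem cell niche along the lateral ventricle, gave 68 cells of an ogp name series and 65 of an ogp2 series, labelled as old neural stem cells, sorted as GLAST+ CD133+ CD45- O4-, from mice labelled 23 months of age (the protocol names 22 months and 4 pooled mice). Astrocytes sorted as GLAST+ CD45- O4- came from mice labelled 25 months, 13 from striatum and 4 from somatosensory cortex, with 3 to 4 mice pooled. No animal is named for any cell, so each group is 1 sample, cells are not replicates, and no test or p-value is given; an SD is the spread over cells. Age, sort gate and region differ together between stem cells and astrocytes and cannot be told apart.

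Aminoacyl-tRNA synthetases join each amino acid to its matching transfer RNA, the step that sets the genetic code before the ribosome reads it. Cytosolic and mitochondrial translation use separate sets of nuclear-encoded enzymes, but Kars and Gars are known to supply both compartments, and mitochondrial glutaminyl-tRNA is made indirectly by an amidotransferase. Several cytosolic enzymes sit together in the multisynthetase complex, held by the scaffold proteins Aimp1, Aimp2 and Eef1e1. Quiescent neural stem cells are known for low protein synthesis, which is higher in activated cells.

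SVZ cells were placed in ranges of the share of TPM that fell on 79 cytosolic ribosomal protein genes, none of them a synthetase. The low range, under 3%, held 46 ogp and 55 ogp2 cells. The intermediate range, 3 to 6%, held 11 cells, and the ribosome-rich range, 6% or more, held 21. These are ranges of a continuous share and not cell types: 10 cells lay within 0.5 points of the lower limit and 4 within 0.5 points of the upper one. Median genes detected per cell were 3217 in the low, 4174 in the intermediate and 6285 in the ribosome-rich range, 3636 in striatum and 3387.5 in cortex. Summed stem cell activation markers had medians of 449, 1930 and 5650 TPM in the 3 ranges, and 11 of the 14 were detected in at least 50% of the ribosome-rich cells. Quiescent stem cell and astrocyte markers went the other way, with median sums of 130507, 46629 and 8963 TPM. At least 5 of 15 mitotic genes were detected in 9 ribosome-rich, 2 intermediate and 0 low cells. Neuroblast markers summed to a median of 0, 106.05 and 299 TPM, and all 12 microglia markers stayed under 1 TPM in every ribosome-rich cell. The 15 astrocyte and quiescence markers had median sums of 120396 TPM in striatum and 88569 TPM in cortex, and all were listed in both. In 5 SVZ cells (4 low, 1 ribosome-rich) the listed values summed to at most 309864 TPM and were rescaled. The part of depth and cell type in the differences below was not tested.

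Most synthetases were low and patchy. Over all SVZ cells the highest mean belonged to Dars, the aspartyl enzyme of the cytosolic complex, at 167.8 ± 212 TPM (SD over cells), detected in 63.9% of cells. Mars, which charges methionine for both initiation and elongation, followed among the cytosolic enzymes at 76.2 ± 132.3 TPM, and Farsb, a subunit of the phenylalanyl enzyme, at 75.7 ± 127.9 TPM. The highest mitochondrial means were those of the leucyl enzyme Lars2 at 138.2 ± 154, the phenylalanyl enzyme Fars2 at 116.1 ± 165 and the tyrosyl enzyme Yars2 at 36.4 ± 86.5 TPM. In the order of the 37 means, none of the 36 steps between neighbours was larger than the smaller of their SDs over cells, and the largest step was 39.97 TPM. An SD over cells is the spread of single cells and not the error of a mean, so no order of neighbours is read from these steps.

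Lars2 stood apart in its detection. It was the 1 synthetase found in all 150 cells, and 1 of 44 genes of any kind that were. Its median and highest values were 97.7 and 1203 TPM over low-range cells, and 89.7 and 256.5 TPM over ribosome-rich cells, so the ranges overlapped. Its longest exact stretch in common with any of 37 mitochondrially encoded transcripts was 14 bases. Fars2 was detected in 51.9% of SVZ cells, while every mitochondrial enzyme other than these was found in 33.8% or fewer. For 11 members (4 cytosolic, 7 mitochondrial) the values are uncertain, because they share at least 100 identical bases with a transcript of another gene. For Fars2 these are 503 bases with Nrn1, itself listed at 0 in SVZ cells, and a shorter stretch with Lyrm4, at 237 TPM. Iars2 shares 2034 with Rab3gap2, Aars 1326 with Exosc6, and Hars and Hars2 share 195 with each other.

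Cytosolic synthetases were higher in the SVZ cells rich in ribosomal protein RNA. Their summed level was 1995 ± 912 TPM in the 21 ribosome-rich cells and 863 ± 424 TPM in the low cells, a ratio of 2.31. The sum in 20 of 21 ribosome-rich cells lay above the low-range median, but the ranges overlapped, since only 7 exceeded the highest low cell. By gene, 12 of 20 were at least 2-fold higher and 0 lower, where 26.8% of the 9283 tested genes were at least 2-fold higher and 23.0% lower. Tested genes are those with a mean of at least 10 TPM in either range, which all 20 cytosolic genes reached. The median log2 difference, taken of mean TPM + 1, was 1.25 for the cytosolic genes and 0.16 for all tested genes. Without the 5 cells of low listed sums, left out after seeing the data, it was 1.18 (mitochondrial 0.89), and with only the 12 ribosome-rich cells that show fewer than 5 mitotic genes it was 0.89 (mitochondrial 0.77).

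**Figure D1:**
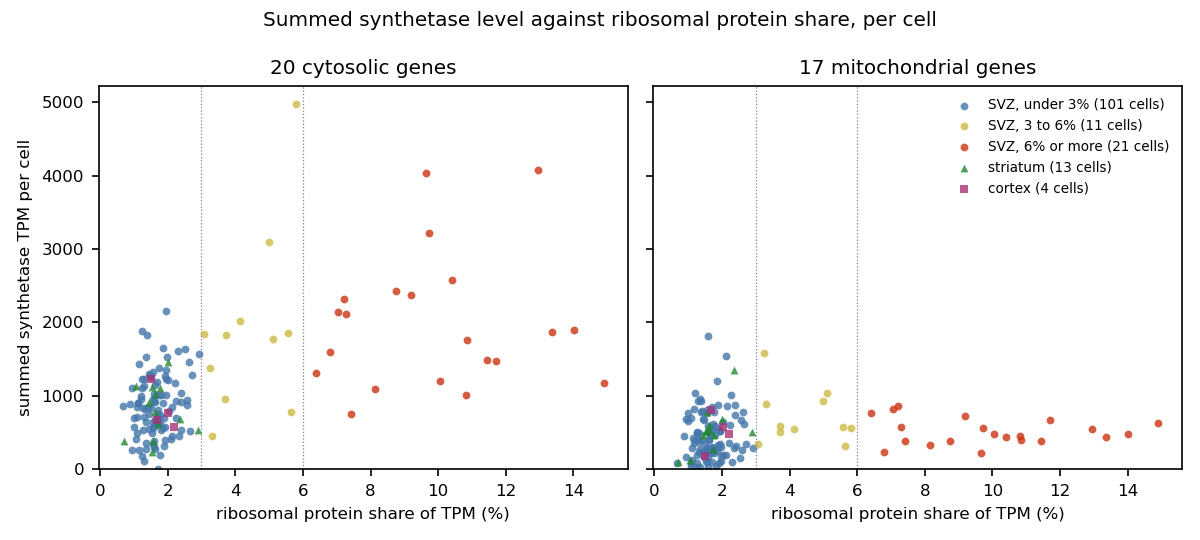
Summed TPM of the 20 cytosolic (left) and 17 mitochondrial (right) synthetase genes in each cell against the share of TPM on cytosolic ribosomal protein genes (%); each point is 1 cell, dotted lines mark 3% and 6%. Cytosolic sums are mostly higher above 6%, reaching 4078 TPM, while mitochondrial sums stay within the span of the low cells.

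Mitochondrial synthetases had a smaller pooled difference, which was not tested against the cytosolic one. They summed to 512 ± 180 TPM in ribosome-rich and 459 ± 327 TPM in low cells, a ratio of 1.12, and no ribosome-rich cell exceeded the highest low cell. Lars2 and Fars2 weigh most in this sum, with SVZ means of 138.2 and 116.1 TPM against 36.4 TPM for Yars2, the next mitochondrial gene. Both had lower means in ribosome-rich than in low cells, as given below, and the sum without them is not given here. Of the 17 genes 12 reached 10 TPM in either range and could be called. Of these 6 were at least 2-fold higher and 1 lower, beside 26.8% and 23.0% of all tested genes. The median log2 difference was 0.65 over all 17. In ogp cells, which hold 15 of the 21 ribosome-rich cells, the medians were close, 1.32 for mitochondrial and 1.42 for cytosolic genes, and in ogp2 cells they were 0.29 and 1.13. Requiring 10 TPM in both ranges left 3 at least 2-fold higher and a median of 0.21. The mitochondrial share of all synthetase TPM had a median of 31.7% in low, 24.4% in intermediate and 21.2% in ribosome-rich cells. Lars2 and Fars2 enter this share too, so it is not read as a trait of all mitochondrial enzymes.

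The larger part of the cytosolic difference lay in how many cells showed each gene. All 20 cytosolic genes were detected in a larger share of ribosome-rich than low cells, by a median of 49.3 percentage points, against 21.6 for the mitochondrial genes and 26.6 for all tested genes. Among cells that detected a gene, levels were lower in the ribosome-rich range: the median log2 difference was -0.39 for cytosolic, -1.16 for mitochondrial and -1.07 for all tested genes. A ribosome-rich cell showed a median of 15 cytosolic and 7 mitochondrial synthetases, an intermediate cell 8 and 5, and a low cell 4 and 3. In the ribosome-rich range 17 of 21 cells showed more cytosolic synthetases than any low cell, whose highest count was 11.

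Ribosome-rich cells also showed more genes in general, so the counts were set against all genes detected in the same cell. Per 1000 genes detected, the median cell held 1.44 cytosolic synthetases in the low, 2.08 in the intermediate and 2.64 in the ribosome-rich range. The matching mitochondrial values were 0.88, 1.13 and 1.22. In cells with between 3225 and 5145 genes detected, where the 2 ranges overlap, 7 ribosome-rich cells showed a median of 12 cytosolic synthetases and 50 low cells 6. In these cells, a subset chosen after seeing the data, 11 of 20 cytosolic genes were at least 2-fold higher and 1 lower (Tars), with a median log2 difference of 1.04 (mitochondrial 0.64). The shares of all tested genes called in this subset are not given, so these counts are not read against a background. Genes detected still differed there, with medians of 4724 and 3703.5.

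**Figure D2:**
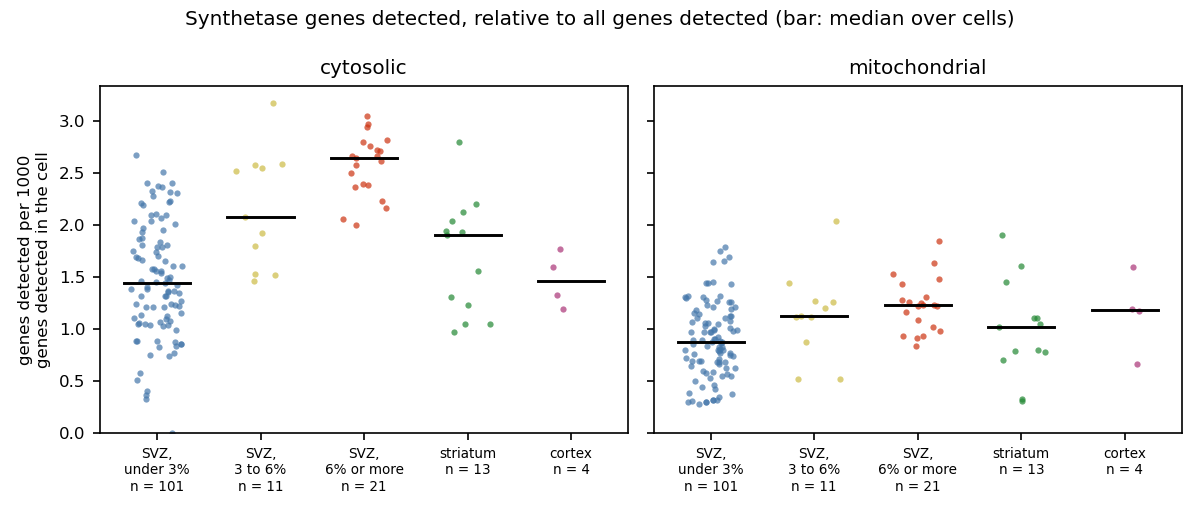
Cytosolic (left) and mitochondrial (right) synthetase genes detected per 1000 genes detected in the same cell, by range of SVZ cells and in astrocytes; each point is 1 cell and bars are medians. Cytosolic medians go from 1.44 to 2.64 across the SVZ ranges, mitochondrial ones from 0.88 to 1.22.

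Structural class and complex membership divided the cytosolic enzymes only loosely. Class I and class II enzymes have unrelated catalytic folds. The 10 class II genes had a median log2 difference of 1.49, with 7 at least 2-fold higher, and the 9 class I genes one of 0.99, with 4. Eprs, which joins a class I and a class II enzyme in 1 protein, was 1.62 higher, at 121.99 against 39.1 TPM. The 8 enzymes of the multisynthetase complex had a median of 0.98 and 3 at least 2-fold higher, and the 12 outside it 1.37 and 9. These counts stand beside 26.8% of all tested genes at least 2-fold higher. The subgroups are small and differences between them were not tested. Of the 3 scaffold genes Aimp1 was 1.43 higher on the log2 scale, Aimp2 0.79 and Eef1e1 0.65.

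The C/EBP-ATF response element is known to carry the amino acid response at several synthetase genes, so the promoters were searched for TGATGNAA on either strand. RefSeq windows (GRCm38.p6) were at hand for 27 of the 37 members, and the 250 bases before the start site were read. The other members, among them Lars and Vars, were not searched. 3 of 13 cytosolic and 0 of 14 mitochondrial genes held the letters, against 3.45% of all 32851 windows. The stricter form TGATGCAA, which is contained in the first, was in 2, Aars and Tars, against 0.79% of all windows. The matches of Gars and Tars are shown 5′ to 3′ on the strand of each gene, with the match in capitals as its reverse complement.
Gars, chr6:55037960-55037989, plus strand: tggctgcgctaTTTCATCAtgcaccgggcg
Tars, chr15:11399659-11399684, minus strand: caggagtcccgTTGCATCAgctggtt
Counted back from the RefSeq start site, the matches begin 30 bases before it in Gars and 15 in Tars. Aars, Gars and Tars, the 3 genes with a match, were 1.60, 3.22 and 1.99 higher in ribosome-rich cells, with a median of 1.99, and the 10 other cytosolic genes with a window had a median of 0.96, between -0.73 and 1.95. The median of these 3 genes is the Tars value. Among cells with overlapping gene numbers Tars was at -2.94 and Gars at 0.44. With only the ribosome-rich cells that show fewer than 5 mitotic genes Tars was at 0.053. No link between match and level is therefore read. A match of letters is a description and shows no binding.

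Gars, the glycyl enzyme (chromosome 6, 55038007 to 55079500, GRCm38, plus strand), had the largest log2 difference of mean TPM + 1 among the members over all cells of the outer ranges. With logs averaged over cells Vars (4.47) exceeded Gars (4.17), and in ogp cells Lars (4.00) exceeded Gars (2.66). Its mean was 14.03 ± 46.2 TPM in low, 215.5 ± 355 in intermediate and 138.7 ± 142 in ribosome-rich cells, a difference of 3.22 between the outer ranges. It was detected in 13 low cells (12.9%, exact Clopper-Pearson 95% interval 7.04 to 21.004%) and 14 of 21 ribosome-rich cells (66.7%, 43.03 to 85.4%). Low and ribosome-rich cells overlapped, since the highest low cell had 254 TPM and 7 ribosome-rich cells were under 1 TPM. The intervals cover counting error over cells only. Among cells with overlapping gene numbers its difference was 0.44. Its promoter match is printed above.

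Vars, the valyl enzyme (chromosome 17, 35000987 to 35016322, plus strand), stayed at 17.1 ± 51.2 TPM in low and 14.7 ± 32.8 in intermediate cells and reached 98.2 ± 79.02 TPM in ribosome-rich cells. The difference between the outer ranges was 2.46, or 1.13 with SVZ cells in 3 ranges of equal number, and 17 of 21 ribosome-rich cells detected it (80.95%) against 16 low cells (15.8%). Kars, the lysyl enzyme, had the same shape, at 42.5 ± 104.4, 42.4 ± 79.9 and 167.2 ± 91.6 TPM. It was found in 19 low (18.8%), 4 of 11 intermediate and 20 of 21 ribosome-rich cells (95.2%). Both means were thus near the low level in the intermediate cells, unlike the Gars mean, although a larger share of intermediate than low cells detected Kars. With 11 intermediate cells this contrast was not tested.

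Lars, the leucyl enzyme of the complex, was 2.51 higher at 44.9 ± 49.2 against 7.06 ± 28.4 TPM. Tars, the threonyl enzyme, was 1.99 higher at 68.4 ± 99.8 against 16.5 ± 69.4 TPM, but its difference was 0.053 with only the ribosome-rich cells that show fewer than 5 mitotic genes, and -2.94 among cells with overlapping gene numbers. It was detected in 10 low and 11 of 21 ribosome-rich cells. Nars, Aars, Farsa, Hars, Yars and Cars made up the other 2-fold calls with Kars and Eprs, between 1.16 and 1.95.

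Dars had a higher mean over all cells in the ribosome-rich than in the low range, by less than 2-fold. That difference lay in detection and not in the level of detecting cells. It was found in 54 low cells (53.5%), 10 of 11 intermediate and 21 of 21 ribosome-rich cells. In the cells that detected it the means were 254, 402 and 218 TPM. Qars, the glutaminyl enzyme, was the 1 cytosolic gene with a lower mean in ribosome-rich cells, 35.9 ± 45.3 against 60.1 ± 155 TPM (log2 -0.73), although 47.6% of them detected it against 23.8% of low cells. The remaining cytosolic genes under 2-fold were Iars, Rars, Farsb, Sars, Mars and Wars, between 0.35 and 0.99.

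**Figure D3:**
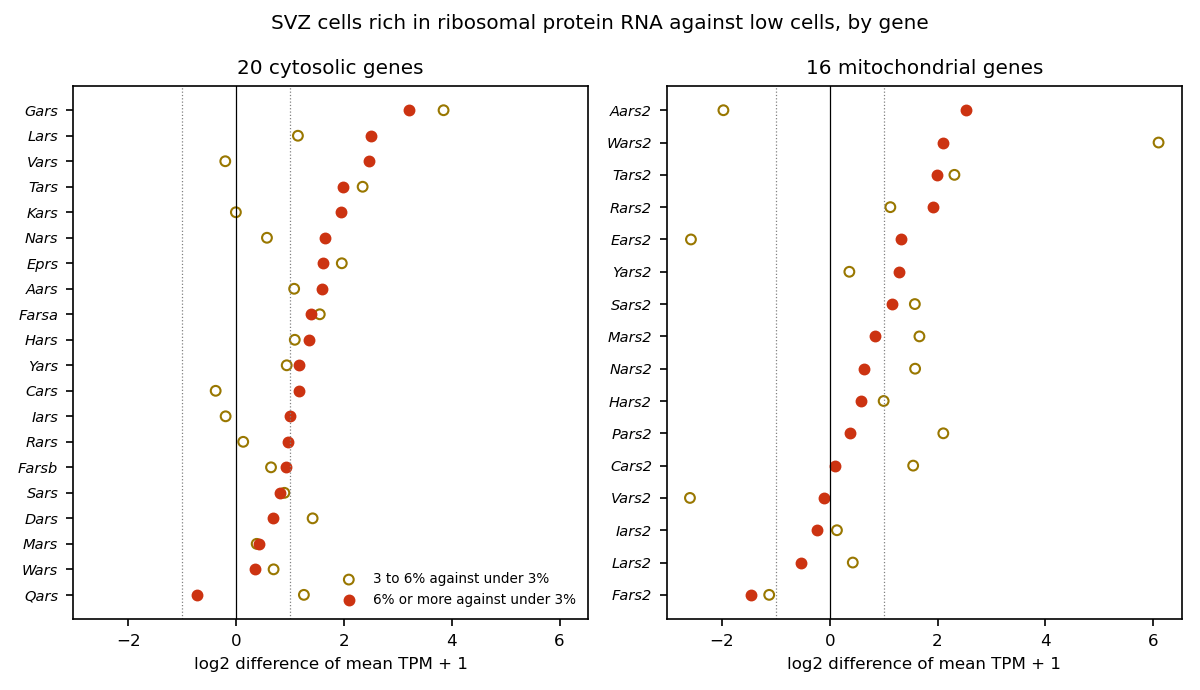
Log2 difference of mean TPM + 1 for 20 cytosolic and 16 of 17 mitochondrial synthetase genes, ribosome-rich (filled) and intermediate (open) against low SVZ cells; dotted lines mark 2-fold. 19 of 20 cytosolic genes lie above 0 in the ribosome-rich comparison, with Gars highest at 3.22 and Qars lowest at -0.73.

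Among mitochondrial enzymes the alanyl enzyme Aars2 and the threonyl enzyme Tars2 were the largest named differences. Aars2 was at 21.6 ± 35.6 TPM in ribosome-rich and 2.92 ± 17.8 TPM in low cells, found in 8 of 21 and in 3 low cells, and in 0 of 11 intermediate cells. Tars2 was at 30.5 ± 36.8 against 6.95 ± 31.8 TPM, found in 13 of 21 and in 7 low cells. Both were scarce in low cells, and their log2 differences were 2.53 and 1.98. The call for Aars2 ended with ranges of equal cell number (0.85), and its difference was 1.29 with a pseudocount of 10 TPM. The call for Tars2 ended in ogp2 cells alone (0.39) and among cells with overlapping gene numbers (0.79). Rars2 (1.92), Ears2 (1.31), Yars2 (1.28) and Sars2 (1.15) were the other 4 calls. Wars2 differed by 2.10 but stayed under 10 TPM in both ranges.

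Fars2 (chromosome 13, 36117412 to 36726280, plus strand) had a lower mean in ribosome-rich cells. Its mean was 136.1 ± 179 TPM in low, 61.98 ± 110 in intermediate and 48.6 ± 69.9 in ribosome-rich cells, a log2 difference of -1.47. The 2-fold call ended with logs averaged over cells (-0.71) and among cells with overlapping gene numbers (-0.42). The share of cells that detected it hardly moved, at 51.5% (41.3 to 61.6%), 54.5% (23.4 to 83.3%) and 52.4% (29.8 to 74.3%). In the detecting cells the mean went from 264 to 92.6 TPM. Low and ribosome-rich cells overlapped fully at the bottom, while the highest ribosome-rich cell, at 217 TPM, lay below the low-range mean of detecting cells. Lars2, seen in every cell, had a lower mean at 97.5 ± 61.6 against 141 ± 166 TPM, a difference of -0.53 that does not reach 2-fold. Its medians were closer, at 89.7 and 97.7 TPM, and the low cells included values of 959 and 1203 TPM.

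**Figure D4:**
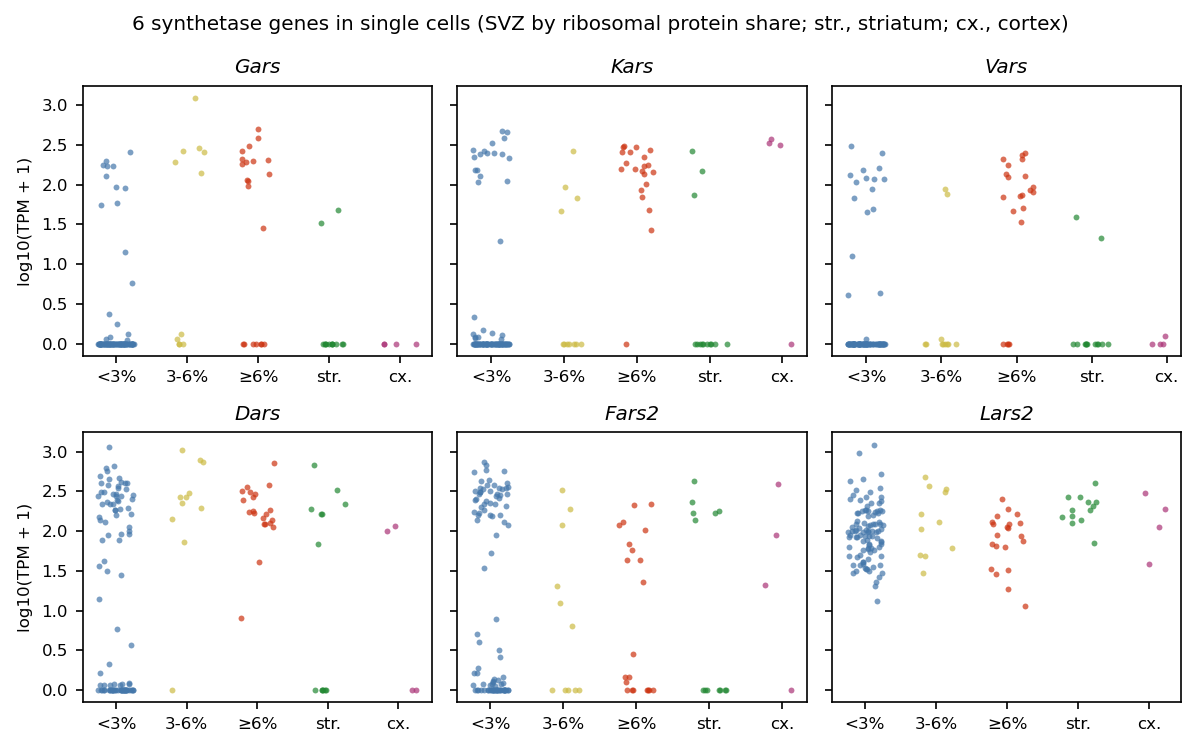
log10(TPM + 1) of 6 synthetase genes in each cell, by range of ribosomal protein share in SVZ cells and in striatum and cortex astrocytes; each point is 1 cell. Gars, Kars and Vars fill in from mostly 0 to mostly detected, Fars2 keeps its detected share of about 52% at lower levels, and Lars2 is detected in every cell.

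The cells between 3 and 6% were few and uneven. Of 20 cytosolic genes 9 were at least 2-fold higher than in the low range and 0 lower, with 29.2% of 9541 tested genes higher and 18.9% lower. Their median log2 difference was 0.92 against 0.29 for all tested genes. Of 17 mitochondrial genes, 14 of which passed the filter, 9 were higher and 1 lower, with a median of 1.00. Leaving out the single highest cell of each gene's higher range ended 11 of the 18 higher calls here, against 4 of 18 in the ribosome-rich comparison. With limits at 2 and 5% the cytosolic median was -0.05, so no direction is read for this range.

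The largest intermediate differences among members at 20 TPM or more and found in at least 30% of cells were Gars (3.85), Tars (2.35), Tars2 (2.31), Eprs (1.96), Farsa (1.55) and Dars (1.42), with Fars2 lower (-1.12). Gars was found in 6 of these 11 cells, with a mean of 395 TPM among them and a highest cell at 1223 TPM. Eprs went from 39.1 ± 70.5 to 154.9 ± 208 TPM, and Farsa from 29.2 ± 86.2 to 87.7 ± 98.5 TPM. The spread over cells exceeded the mean for all 3 genes. With limits at 2 and 5% the calls for Eprs (0.74), Tars2 (0.70), Farsa (-0.77) and Fars2 (-0.39) ended. 1 intermediate cell carried 4751 TPM of microglia markers and another 7768 TPM of oligodendrocyte markers. Without both, a choice made after seeing the data, the cytosolic median was 0.76 and the mitochondrial one 0.65.

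Genes next to the synthetases in the same pathway also differed between ribosome-rich and low cells, and their counts stand beside the 26.8% higher and 23.0% lower of all tested genes. Of 10 cytosolic and mitochondrial elongation factors 7 were at least 2-fold higher (median 1.57), led by Eef1a1, which carries charged transfer RNA to the ribosome, at 6071 against 868 TPM. The list's 2 next genes were Eef1g, at 676 against 141 TPM, and Eef1b2, at 716.5 against 165 TPM. Its mitochondrial factor Gfm1 was 1.24 higher, while Tsfm, Gfm2 and Tufm differed by 0.02 to 0.28. Of 30 transfer RNA maturation genes 23 passed the filter and could be called. Of these 10 were higher and 1 lower, and the median over all 30 was 0.72. The shares of all tested genes likewise count only genes that passed the filter. The pseudouridine synthase Pus7 was 2.81 higher, the cytosine methyltransferase Nsun2 2.75 and Pus1 2.28, while Dus3l was 1.13 lower (log2 -1.13). 25 of 76 mitochondrial ribosomal protein genes were higher and 0 lower (median 0.72). How many of the 76 passed the filter is not given here, so no share is compared.

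The amino acid response, in which Atf4 and C/EBP factors raise amino acid synthesis and transport genes, gave 12 of 21 genes at least 2-fold higher and 1 lower (median 1.56), beside 26.8% and 23.0% of all tested genes. Of the 21 genes 5 stayed under 1 TPM in every low cell. Such a gene passes the filter only through the ribosome-rich range and is then called higher by construction. How many of the 21 passed is not given, so the count is not read against those shares. Asns, asparagine synthetase, was detected in 42.9% of ribosome-rich and 0 low cells, with means of 95.7 and 0.00406 TPM. Pycr1 and Mthfd2, of proline and folate metabolism, were found in 52.4% and 38.1% of ribosome-rich cells and likewise in 0 low cells. Slc7a11, the cystine transporter, was the gene lower, at 16.3 against 72.3 TPM. The list's summed level was nearly the same in both ranges, 2950 and 2872 TPM, and its most abundant gene Phgdh was at 920 against 1281 TPM. Of 3 synthetase relatives outside the naming rule and 4 genes of the mitochondrial glutaminyl and initiator transfer RNA pathway 0 were at least 2-fold apart, with medians of 0.50 and 0.43.

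**Figure D5:**
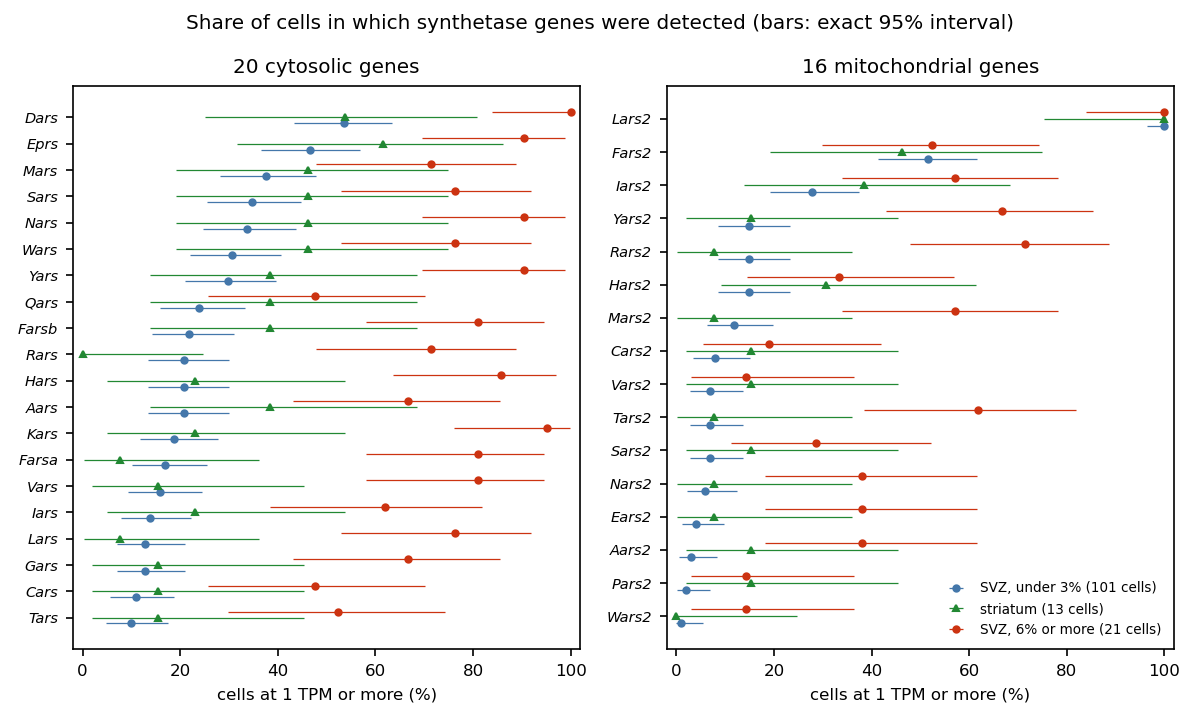
Share of cells (%) at 1 TPM or more for 20 cytosolic and 16 of 17 mitochondrial synthetase genes in low SVZ cells, striatum astrocytes and ribosome-rich SVZ cells, with exact 95% intervals that cover counting error only. Dars goes from 53.5% of low to 100% of ribosome-rich cells, while Rars is at 0 in striatum.

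Striatum astrocytes resembled the low SVZ range in the totals. Their cytosolic synthetases summed to 798 ± 364 TPM and the mitochondrial ones to 531 ± 314 TPM, against 863 ± 424 and 459 ± 327 TPM in low cells, differences smaller than the spread over cells. The median cell showed 6 cytosolic and 3 mitochondrial enzymes. Detection differed more: cytosolic genes were found in a larger share of striatum than low cells by a median of 7.0 percentage points, against 3.4 for all tested genes. Among detecting cells their median log2 difference was -0.46, against -0.32 for all tested genes. Against the low range 0 cytosolic genes were at least 2-fold higher and 4 lower, and 3 mitochondrial genes were higher and 2 lower. The background was 14.2% higher and 24.5% lower, and the medians were -0.11, -0.42 and -0.17 for cytosolic, mitochondrial and all tested genes. Against all SVZ cells 0 cytosolic genes were higher and 5 lower, 3 mitochondrial genes were higher and 3 lower, with 12.3% and 28.3% of all tested genes and medians of -0.53, -0.41 and -0.26.

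Hars2, the mitochondrial histidyl enzyme, was the named gene higher in striatum, at 67.1 ± 116.8 TPM against 20.0 ± 57.7 in SVZ (log2 1.70) and 17.1 ± 58.7 in low cells (1.91). It was carried by 4 of 13 striatum cells, at 144, 371, 185 and 173 TPM, with the other 9 at 0. Farsa was lower than in SVZ, at 17.05 ± 61.3 against 41.8 ± 86.4 TPM (-1.25), and 1 cell at 221 TPM made up nearly all of it. Rars, the arginyl enzyme, was listed at 0 in all 13 cells (a share of up to 24.7% by the exact interval), where low SVZ cells detected it in 20.8%. Wars2 was also listed at 0. Lars2 was steady, at 201 ± 84.9 TPM with a lowest cell of 69.5 and a highest of 408 TPM, and Gars was found in 2 cells, at 31.6 and 46.9 TPM.

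The 4 cortex astrocytes gave the least certain values. Cytosolic sums were 668, 1230, 568 and 760 TPM and mitochondrial sums 803, 174, 477 and 580 TPM in cells 1 to 4, so the second cell was highest in the former and lowest in the latter. 5 cytosolic and 8 mitochondrial genes were listed at 0 in all 4. Against the low range 2 cytosolic genes were at least 2-fold higher and 11 lower, 5 mitochondrial genes were higher and 4 lower, and the background was 22.6% and 40.8%. The medians were -1.30, -0.59 and -0.32 for all tested genes. Against all SVZ cells the counts were 1 and 12 cytosolic and 5 and 5 mitochondrial, with 20.7% and 43.4% of tested genes and medians of -1.43, -1.63 and -0.49. Without cortex cell 1 the cytosolic medians were -3.46 and -4.26, and leaving out the highest cell ended 6 of 7 higher calls against the low range.

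Kars was detected in 3 of the 4 cortex cells. Its values were 0, 314, 378 and 330 TPM, against a mean of 62.2 ± 110 TPM in SVZ (log2 2.02) and 42.5 ± 104.4 in low cells (2.56). Striatum cells had 37.6 ± 81.6 TPM, with 3 of 13 detecting it. Nars, the asparaginyl enzyme, was 1.27 higher than in low cells from values of 0, 264, 0 and 267 TPM, and 0.70 or 0.68 higher without cell 2 or cell 4. Hars2 was 1.83 and 2.04 higher than in SVZ and low cells from values of 268, 26.4, 0 and 0 TPM, and lower without the first cell.

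On the lower side in cortex were Wars, Yars, Dars, Hars, Mars and Qars. Wars, the tryptophanyl enzyme, was listed at 0 in all 4 cells and had 58.6 ± 97.3 TPM in SVZ and 48.5 ± 75.8 in striatum. Dars stood at 0, 98.3, 0 and 116.7 TPM, 1.62 below SVZ (log2 -1.62). Yars, Mars and Qars were each seen in 1 cell, at 54.8, 110.9 and 96.5 TPM, and Hars at 80.4 TPM in cell 1. The call for Qars against SVZ (-1.36) ended without any of the other 3 cells (-0.96). With 4 cells, a gene seen in few of them and a gene at a lower level cannot be told apart.

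Set against cortex, striatum had 6 cytosolic genes with a mean at least 2-fold larger and 4 with a smaller one, and 3 and 3 mitochondrial ones, beside 38.3% and 28.9% of 8276 tested genes. The medians were 1.13 for cytosolic, 0.00 for mitochondrial and 0.10 for all tested genes. Yars, Qars and Dars were 2.08, 1.57 and 1.35 higher in striatum, and Wars was seen there alone. Kars, Farsa and Nars were lower, by log2 differences of -2.73, -1.68 and -1.27. Without cortex cell 1 Farsa turned to 0.79 and Dars was 0.94, as was Dars without cell 3. Nars was -0.70 without cell 2 and -0.69 without cell 4, so its call rests on both. These comparisons share cells with those above and are not independent of them.

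The meaning of the ogp and ogp2 name series is not given. The ogp cells held 15 of the 21 ribosome-rich cells. Between the series 2 cytosolic genes were at least 2-fold higher in ogp and 0 lower, and 3 and 1 mitochondrial ones, beside 14.4% and 7.01% of 9063 tested genes, with medians of 0.17 and 0.34. Gars was at 80.7 ± 177 TPM in ogp and 18.7 ± 61.9 in ogp2, and Vars at 40.8 ± 71.8 and 18.1 ± 48.9 TPM (log2 1.13, or 0.98 without its highest ogp cell). Within the low range the medians were -0.15 and 0.05. There Lars2 was the named gene, at 195 ± 226 TPM in ogp and 95.6 ± 64.1 TPM in ogp2 (log2 1.02). Without the highest ogp cell, at 1203 TPM, the difference was 0.85, under 2-fold. The cytosolic difference between ribosome-rich and low cells had the same direction in each series.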

How the data were processed

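Values are TPM per gene and cell as deposited, made by the authors with STAR 2.4.0g1 and RSEM 1.2.18 on mm10, per the submitters' processing notes; the annotation is not given in the sources used here. The deposited TPM hold no read numbers, and sequencing depth per cell is therefore unknown. 18 population libraries were not analysed here. In 5 SVZ cells of the ogp series listed genes sum to between 66189 and 309864 TPM, elsewhere to at least 999576, and every cell was rescaled to 1000000. The difference is log2 of (mean TPM + 1) of the first group over the second, genes need 10 TPM in either group, and a call needs 2-fold. List medians take all members. Named are up to 6 members per direction and comparison with the largest difference, at least 20 TPM and detection in 30% of cells of the higher group, plus the 3 highest of each compartment in SVZ; of other lists up to 3 genes. Members and lists were chosen with earlier results of these data known. Qars, Lars2, Rars and the genes under 2-fold or listed beside them were named after their values were seen. Transcripts (GENCODE M21) were compared with BLAST. The scripts (Python 3.11.15, pandas 2.3.3, scipy 1.17.1) were tested on shuffled SVZ cells in which 200 genes were multiplied by a known fold. Of genes raised 2-fold 83.3% came out in the right direction, and of those raised 4-fold 93.8%. The sign of a single gene's difference can therefore be wrong. Alternatives covered the pseudocount, filter, scaling, limits of the ranges, name series and left out cells. Some items are not reported here.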

Additional observations from a re-analysis of the deposited data

Results flagged for a closer look

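In the 4 cortex cells 13 values were looked at for a cell far from the other 3, and 7 held one. The limit used marks about 1 in 20 groups by chance only where values are normally distributed. These TPM are often 0, and a gene seen in 1 of 4 cells passes it by construction, so their number is not read against chance. In 6 of them the highest cell stood alone: Farsa at 199.8 TPM, Hars at 80.4 TPM, Hars2 at 267.65 TPM, Mars at 110.9 TPM, Qars at 96.5 TPM and Yars at 54.8 TPM. For Kars the lowest cell stood alone at 0 TPM. For Mars, Qars and Yars the other 3 cells were at 0. No cause was tested.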

How the results depend on the processing

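No paired analysis was possible because no replicate number links cells of different groups and no test was run. Between ribosome-rich and low cells the direction of both medians held under every alternative. The cytosolic median was 3.32, with 20 genes 2-fold higher, when logs were averaged over cells. The median of all 9283 tested genes moved up as well in that setting, to 1.32, and the share of them called is not given. In ogp cells alone the mitochondrial median was 1.32, and 3 mitochondrial genes were 2-fold higher with 10 TPM in both ranges. Tars reversed to -2.94 in cells with overlapping gene numbers. For intermediate cells the cytosolic median was 1.92 with averaged logs, 0.22 in ogp2 cells, -0.050 with limits at 2 and 5% and 0.12 by ranges of equal cell number. The mitochondrial one was 0.31 in ogp cells, 0.034 in ogp2 cells, 0.12 with limits at 2 and 5% and -0.019 by ranges of equal cell number. Farsa reversed to -0.77 and -0.78 under those limits and equal ranges, and by the latter Tars to -0.15 and Dars to -0.30. For cortex against SVZ the mitochondrial median was -0.55 with a pseudocount of 10, -0.40 with averaged logs and 0.21 with 10 TPM in both groups, where the cytosolic one was -0.62. Leaving out each cortex cell gave cytosolic medians from -4.26 to -1.03 and mitochondrial ones from -2.79 to -1.67, and Hars2 from -1.10 to 2.24. For cortex against low cells 10 TPM in both groups gave -0.20 and 0.028, averaged logs a cytosolic -0.50, and leaving out 1 cell gave -3.46 to -0.90 and -2.57 to -0.63, with Hars2 from -0.89 to 2.45. Between striatum and cortex the cytosolic median was 0.41 with 10 TPM in both groups, and without 1 cortex cell 0.92 to 1.94, the mitochondrial one 0 to 1.71, with Farsa from -2.09 to 0.79. In ogp against ogp2 the cytosolic median was 0.76 with averaged logs. The cause was not tested. Depth is unknown, and cortex has 4 cells.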
